A study of Homo sapiens with 6 samples.

Results

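The tripartite motif (TRIM) genes encode a large family of ubiquitin ligases, and 40 of them were measured here in BxPC-3, a human cell line established from a pancreatic cancer. The 40 genes were selected on their measured values, as rows whose symbol is TRIM followed by a number and whose mean over all 6 libraries was at least 1 FPKM (fragments per kilobase of transcript, scaled to the mapped fragments of the library). They were 40 of 66 such symbols and of 12040 genes at or above that level, from 26255 symbols in all. Their level therefore chose them, and the changes described below were known from earlier work on these data when the family was picked.

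BxPC-3 cells were sequenced in 3 groups of 2 libraries. The Parent group received no treatment. The NC-1 group received a negative control treatment, and the miR-4711-5p group received the microRNA, both read 36 h after transfection. No time is given for Parent, so time in culture may also differ in the comparisons with it. All groups are 1 cell line without any engineered allele, and the labels do not say whether the 2 libraries of a group came from separate cultures, so that p-values measure the spread between these libraries, which may be technical. The treated cells differ from Parent in the transfection as well as in the RNA, and these cannot be told apart in the comparisons with Parent. Against NC-1 the transfected RNAs differ, and an effect of either RNA cannot be told apart from one of the other. The methods list a control RNA shorter than miR-4711-5p and a purchased one, and do not say which was NC-1.

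TRIM proteins carry a RING finger that recruits a ubiquitin-conjugating enzyme, then B-box zinc fingers and a coiled coil through which they pair, followed by a C-terminal part that differs between classes and mostly binds the substrate. Many members with a PRY-SPRY (B30.2) C-terminus act in innate immunity, where they bind viral proteins or tag the sensors and kinases of the RNA and DNA sensing pathways, and several are themselves induced by interferon. Other members have quite different work, such as the transcriptional corepressor TRIM28, the RING-less epithelial protein TRIM29 and the NHL repeat proteins that bind RNA.

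With miR-4711-5p, 11 TRIM genes rose and 4 fell against both Parent and NC-1. TRIM22 rose most, 6.16-fold over Parent, followed by TRIM21 at 2.12-fold and TRIM14 at 1.97-fold. TRIM7 and TRIM29 fell, to levels 2.15 and 1.97 times lower than Parent. Without either Parent or either miR-4711-5p library the genes that fell against both were 2, TRIM7 and TRIM29. As whole cultures were sequenced, a change in the RNA of each cell and a change in the mix of cells cannot be told apart. Of 12040 genes tested, 10% were higher against both references and 15.4% lower, while the corresponding shares of the 40 TRIM genes were 27.5% and 10%.

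The sequences come first, because they are features of the genes that the level did not use. The mature microRNA is shown with its seed, bases 2 to 8, in capitals (RefSeq, GRCh38.p14, chr1:59733269-59733291, minus strand).
hsa-miR-4711-5p: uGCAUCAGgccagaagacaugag

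A 3′ UTR was searched for the 7 bases that pair with the whole seed, CTGATGC (a 7mer-m8 site), for TGATGCA, the match to bases 2 to 7 followed by an A (a 7mer-A1 site), and for both at once, CTGATGCA (an 8mer site). Every TRIM gene had an annotated 3′ UTR in GENCODE on GRCh37. In the longest one, 11 of 40 (27.5%) held a site, against 1959 of 10593 tested genes with a UTR (18.5%). The median lengths of the UTRs searched were 1610 and 1504 bases. The 8mer sites lay in TRIM41, TRIM62 and TRIM5, the only 7mer-m8 site lay in TRIM56, and the 7 genes with 7mer-A1 sites as their best match were TRIM6, with a pair of sites, TRIM13, TRIM16, TRIM39, TRIM44, TRIM59 and TRIM66. The lines that follow give, with the site in capitals and its position in GRCh37, the 8mer and 7mer-m8 sites and the pair in TRIM6, since these genes fall, rise and stay in the comparisons that follow.
TRIM41, 8mer, chr5:180662210-180662217, plus strand: aattccattttCTGATGCAgattttagctg
TRIM62, 8mer, chr1:33612074-33612081, minus strand: tatacccaaagCTGATGCAgagcccattag
TRIM5, 8mer, chr11:5686372-5686379, minus strand: tggcttccaacCTGATGCAatgtgtaatat
TRIM56, 7mer-m8, chr7:100735109-100735115, plus strand: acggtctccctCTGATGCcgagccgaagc
TRIM6, 7mer-A1, chr11:5633113-5633119, plus strand: agcatagtattTGATGCAggttttttttg
TRIM6, 7mer-A1, chr11:5633133-5633139, plus strand: ttttttttgatTGATGCAggggatcaaat

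The TRIM5 site is in 2 of its 6 annotated transcripts with a 3′ UTR and not in the canonical one. The TRIM59 site is in 1 of 2 and also not in the canonical one. The TRIM41 and TRIM62 sites are each in 1 of 2 and the TRIM6 pair in 5 of 8, with the canonical one included. TRIM7 and TRIM29, the members with the deepest falls, held none of the searched sites in any annotated 3′ UTR, nor did TRIM22, TRIM21 or TRIM14. Other kinds of site, and sites outside the 3′ UTR, were not searched.

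Promoters were taken as 250 bases before to 50 bases after each transcription start in a RefSeq table on GRCh38.p14, which listed 29 of the 40 genes. TRIM4, TRIM8, TRIM11, TRIM13, TRIM22, TRIM24, TRIM27, TRIM28, TRIM29, TRIM35 and TRIM45 were not in it. The core of the interferon-stimulated response element was searched on both strands as GAAA, 2 bases of any kind, then GAAA. It was found in 8 of 29 TRIM genes (27.6%), against 352 of 8975 tested genes in the table (3.92%) and 4.38% of all genes in it. Counted by promoter, since a gene can have several starts, it was in 8 of 43 TRIM promoters (18.6%) and 1255 of all 35116 (3.57%). A match is a description of letters and not of a bound site. The matches are printed in capitals along the strand of the gene for all 8 genes, because they divide into genes that rose and genes that did not, with the positions of the printed stretch in GRCh38.p14.
TRIM21, chr11:4393663-4393692, minus strand: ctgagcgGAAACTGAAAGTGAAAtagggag
TRIM14, chr9:98119232-98119255, minus strand: gccgaggTTTCGGTTTCccttggg
TRIM5, chr11:5685085-5685108, minus strand: gtttatcTTTCACTTTCctgccct
TRIM34, chr11:5624904-5624927, plus strand: ccaaaaaTTTCACTTTCatttctc
TRIM26, chr6:30213578-30213607, minus strand: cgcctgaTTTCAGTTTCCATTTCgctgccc
TRIM44, chr11:35662733-35662756, plus strand: tgacgggGAAAGGGAAAgtggaac
TRIM16, chr17:15683015-15683038, minus strand: gaggtaaGAAATAGAAAtaaaggg
TRIM2, chr4:153151939-153151962, plus strand: aaatagaGAAAAGGAAAtaagccg

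TRIM21 and TRIM26 each held 2 overlapping matches. TRIM14 and TRIM5 held theirs 26 and 27 bases before the start. The gamma-activated site was searched on both strands as TTC, 3 bases of any kind, then GAA. It was found in 5 of 29 TRIM genes (17.2%), against 8.47% of tested genes. The 5 were TRIM2, TRIM3, TRIM7, TRIM15 and TRIM16. By promoter, it was in 6 of 43 TRIM promoters (14%), against 7.66% of all promoters. The same stretch of TRIM2 was counted from neighbouring starts whose windows overlap.

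TRIM genes spanned more than 2 orders of magnitude in FPKM, a scale that divides by transcript length and so allows levels of different genes to be set side by side. Of the 40, 16 averaged 1 to 5 FPKM, 6 averaged 5 to 10, 14 averaged 10 to 50 and 4 averaged over 50. The family summed to 814.0 to 899.0 FPKM per library, between 0.158% and 0.18% of all FPKM. TRIM28, the corepressor that KRAB zinc finger proteins bring to chromatin, was the highest, with 289.6 and 274.2 FPKM in Parent, 230.0 and 231.2 in NC-1 and 259.5 and 252.7 with miR-4711-5p. TRIM29, a RING-less protein of stratified epithelia, came second in every group. TRIM28 and TRIM29 together made up 46.9% and 46.4% of the family's FPKM in Parent, 41.0% and 41.5% in NC-1, and 36.4% and 37% with miR-4711-5p.

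**Figure D1:**
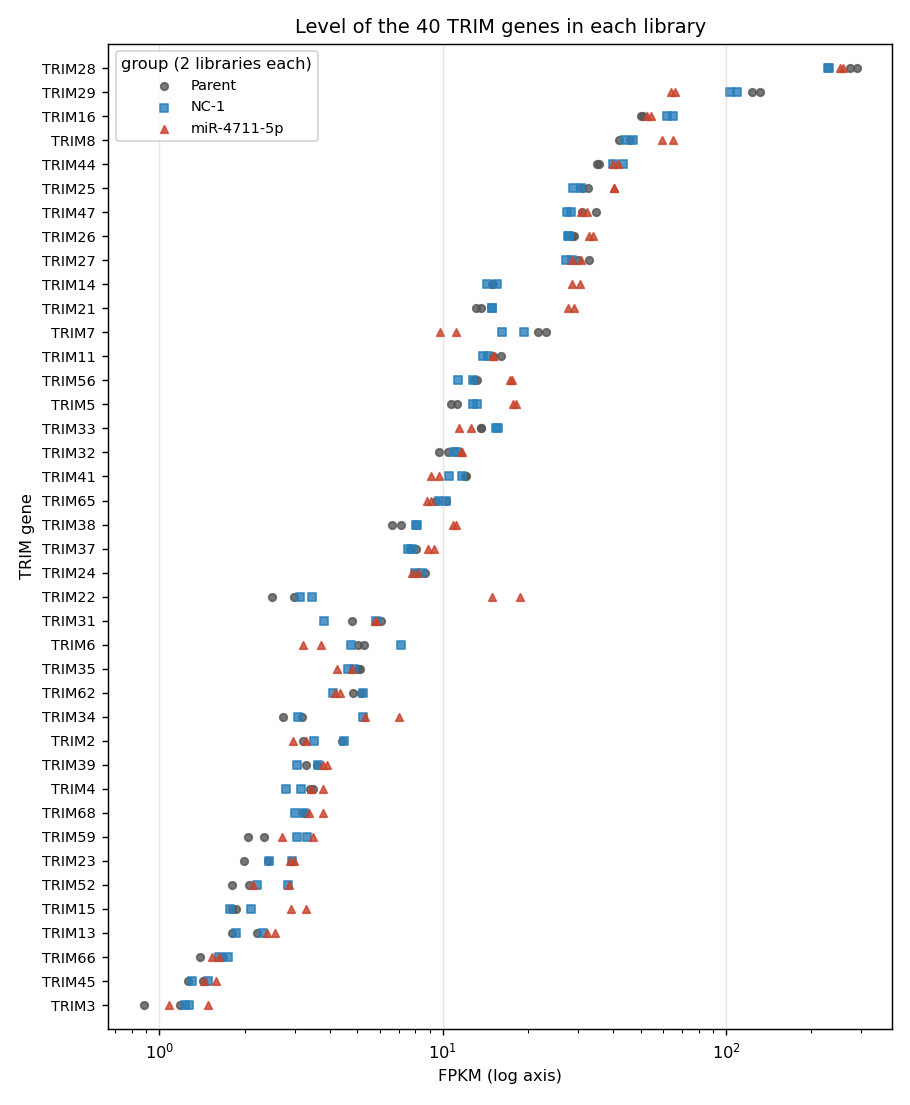
FPKM on a log axis of the 40 TRIM genes, sorted by their mean, in the 2 Parent (circles), 2 NC-1 (squares) and 2 miR-4711-5p libraries (triangles). Most genes keep their place, while TRIM22 moves from about 3 FPKM to 14.9 and 18.8 and TRIM29 and TRIM7 move to the left.

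The lowest gene above the level limit was TRIM3, a neuronal NHL repeat ligase, with 0.883 and 1.18 FPKM in Parent, 1.27 and 1.23 in NC-1 and 1.48 and 1.08 with miR-4711-5p. The highest below it was TRIM36, with 0.180 and 0.188 FPKM in Parent, 0.179 and 0.314 in NC-1 and 0.334 and 0.161 with miR-4711-5p. The gap between them was wide, and in every group all 40 genes had a group mean of at least 1 FPKM, so that none passed through 1 group alone. The other 26 TRIM symbols stayed at or under 0.338 FPKM in every library, and 7 of them were listed at 0 in all 6. All genes with a TRIM symbol in the classes with a COS box, which binds microtubules, were among these 26.

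The test was limma, applied to log2(FPKM + 1) values of all 12040 genes, and a call is an adjusted p (Benjamini-Hochberg) under 0.05. Fold values are ratios of group mean FPKM, and log2 values are differences on the log2(FPKM + 1) scale, which understates the change of low genes. Against Parent, 15 TRIM genes were higher (37.5%, against 18.7% of all genes) and 5 were lower (12.5%, against 24.7%). Against NC-1, 12 were higher (30%, against 18.4%) and 6 were lower (15.0%, against 21.2%). The median log2 difference of the 40 genes was 0.12 against Parent and 0.09 against NC-1, while that of all genes was -0.01 and 0.00. Without the first miR-4711-5p library, 9 were higher and 2 lower against Parent, and 3 were lower without either the second miR-4711-5p or the first Parent library.

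Both miR-4711-5p libraries lay above the other 4 libraries in 16 TRIM genes, or 40%, where 23.8% of all genes did so. Both lay below in 6, or 15.0%, against 26.3% of all genes. NC-1 and Parent share no library, but each comparison of miR-4711-5p uses the same miR-4711-5p libraries, so the calls against both references are not independent of each other.

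**Figure D2:**
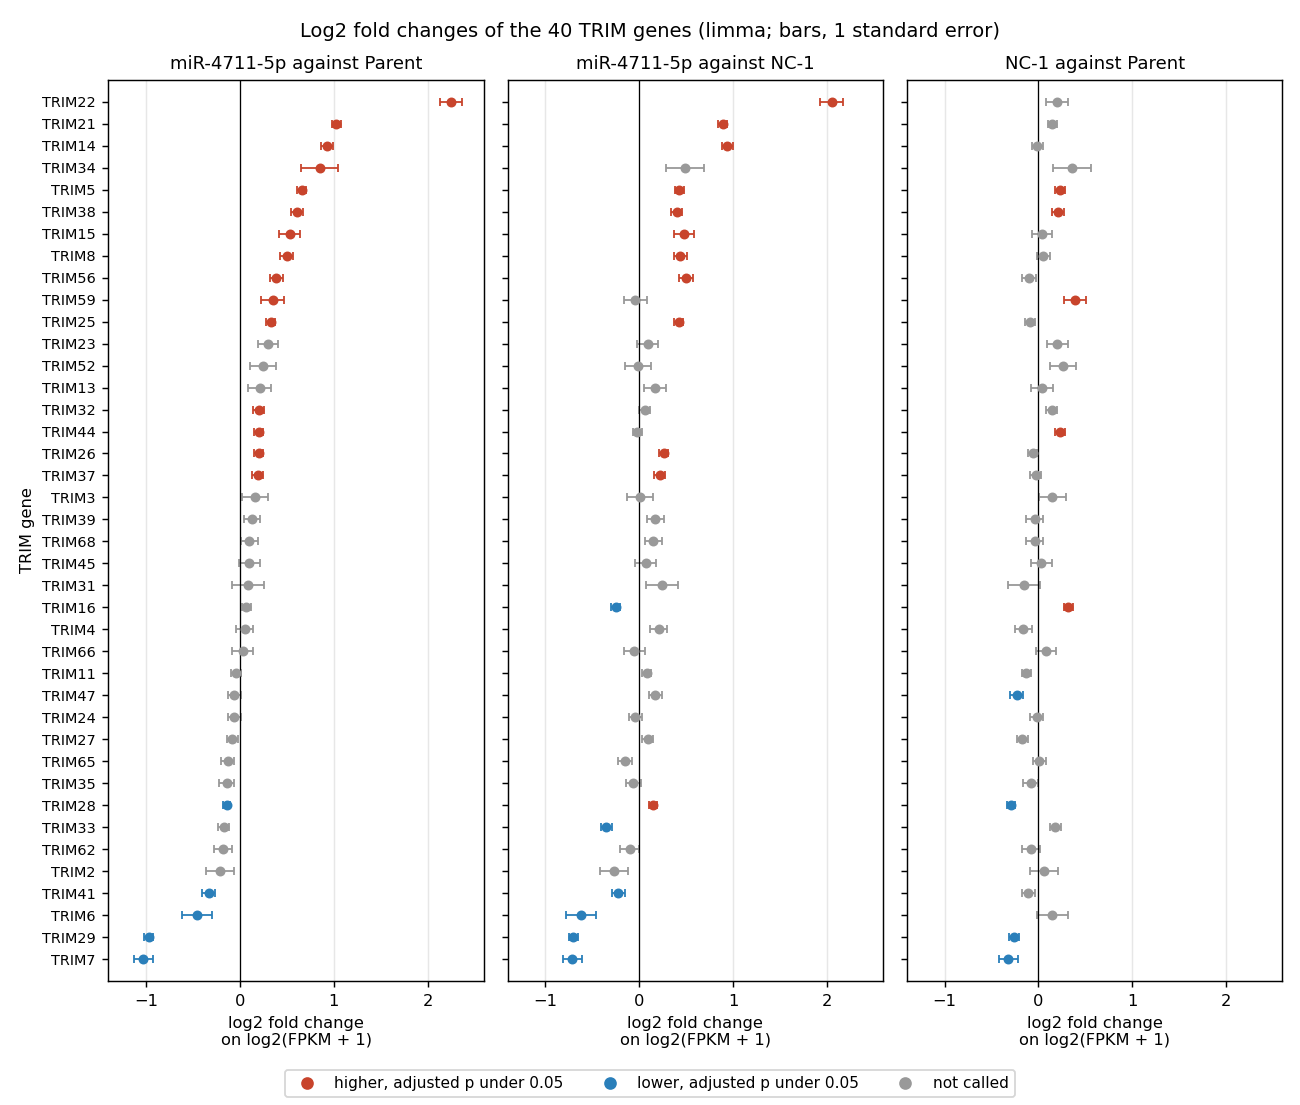
Log2 differences on log2(FPKM + 1) of the 40 TRIM genes, sorted by the value against Parent, with bars of 1 standard error and colour for the limma call. TRIM22, TRIM21 and TRIM14 lie furthest right and TRIM7 and TRIM29 furthest left in both miR-4711-5p comparisons, and NC-1 against Parent holds no value beyond 0.39 in either direction.

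The genes that rose included most of those linked to interferon. A list of 12 such TRIM genes, chosen with earlier results known, had 11 members at the level limit. Of these, 9 rose and 1 fell against Parent, 8 rose and 1 fell against NC-1, and their median log2 differences were 0.61 and 0.43. Over all genes 18.7% rose and 24.7% fell against Parent, and 18.4% rose and 21.2% fell against NC-1. Between NC-1 and Parent, 2 of the 11 were higher, none was lower, and the median was 0.15. The summed level of the 12 genes was 137.5 and 135.3 FPKM in Parent, 134.8 and 142.9 in NC-1, and 213.6 and 207.0 with miR-4711-5p. The twelfth, TRIM69, read 0.082 to 0.338 FPKM and was not tested.

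TRIM22, an interferon-induced antiviral ligase, lies at chr11:5710840-5758319 (GRCh37, plus strand). It had 2.98 and 2.5 FPKM in Parent, 3.46 and 3.13 in NC-1, and 18.8 and 14.9 with miR-4711-5p. Both treated libraries were far above the 4 others, and Parent and NC-1 were close together. The group means were 2.74 ± 0.335 FPKM in Parent, 3.30 ± 0.235 in NC-1 and 16.9 ± 2.73 with miR-4711-5p (SD, n = 2). The log2 difference was 2.25 (SE 0.12, limma adjusted p = 1.64e-05) against Parent and 2.05 (limma adjusted p = 2.87e-05) against NC-1. Among the 40 genes its rank by level went from 32 in Parent and 30 in NC-1 to 14.

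TRIM21, the cytosolic antibody receptor that sends antibody-coated viruses to the proteasome, lies at chr11:4406127-4414932 (minus strand). Its levels were 13.6 and 13.1 FPKM in Parent, 14.9 and 14.9 in NC-1 and 27.6 and 29.0 with miR-4711-5p. The treated libraries stood clear of all others, at 2.12 times Parent and 1.91 times NC-1. The log2 differences were 1.03 (SE 0.05, limma adjusted p = 1.47e-05) and 0.89 (limma adjusted p = 3.15e-05). TRIM14, a RING-less adaptor at mitochondria in antiviral signalling, read 15.1 and 14.9 FPKM in Parent, 14.3 and 15.6 in NC-1 and 30.6 and 28.6 with miR-4711-5p. Parent and NC-1 overlapped, and the treated libraries lay above both. The log2 difference was 0.93 (SE 0.06, limma adjusted p = 4.24e-05) against Parent and 0.94 (limma adjusted p = 4.54e-05) against NC-1. These 3 genes kept their calls against both references in every alternative run.

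TRIM5, the factor that recognises retroviral capsids, was at 11.2 and 10.7 FPKM in Parent, 13.2 and 12.8 in NC-1 and 18.1 and 17.7 with miR-4711-5p. The 3 groups did not overlap, and NC-1 lay between the others. It rose 1.63-fold over Parent (log2 0.66, SE 0.05, limma adjusted p = 0.000113) and 1.38-fold over NC-1 (limma adjusted p = 0.000877). TRIM38, a regulator of innate signalling, gave the same order, with 7.12 and 6.65 FPKM in Parent, 8.06 and 8.13 in NC-1 and 11.1 and 10.9 with miR-4711-5p. Its log2 difference was 0.61 against Parent (SE 0.06, limma adjusted p = 0.000285) and 0.40 against NC-1 (limma adjusted p = 0.00213). For both genes NC-1 was also called above Parent, by 0.23 in TRIM5 (limma adjusted p = 0.0211) and by 0.21 in TRIM38 (limma adjusted p = 0.0431). These NC-1 calls were lost without any single library, at adjusted p of 0.0504 to 0.0956 for TRIM5 and 0.0742 to 0.148 for TRIM38.

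TRIM25, a ligase linked to activation of the RNA sensor RIG-I, had 32.6 and 31.1 FPKM in Parent, 28.9 and 30.8 in NC-1 and 40.4 and 40.2 with miR-4711-5p. The treated pair agreed closely and lay above the 4 others. The rise was 1.27-fold over Parent (log2 0.33, SE 0.05, limma adjusted p = 0.00241) and 1.35-fold over NC-1 (limma adjusted p = 0.000908). TRIM56, an antiviral ligase also linked to STING, read 13.2 and 12.9 FPKM in Parent, 12.8 and 11.3 in NC-1 and 17.6 and 17.3 with miR-4711-5p. It rose 1.34-fold over Parent (log2 0.39, SE 0.07, limma adjusted p = 0.00288) and 1.45-fold over NC-1 (limma adjusted p = 0.00114), and its 3′ UTR holds the 7mer-m8 site shown above. TRIM26, which regulates IRF3, went from 29.0 and 28.7 FPKM in Parent and 27.6 and 27.9 in NC-1 to 32.8 and 33.8. Its libraries did not overlap with the others, and the log2 difference was 0.20 against Parent (SE 0.05, limma adjusted p = 0.0115) and 0.26 against NC-1 (limma adjusted p = 0.00434). The call against Parent was lost without the second miR-4711-5p library (adjusted p = 0.077).

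The genes on the interferon-linked list without a rise against both references were TRIM34, TRIM31 and TRIM6. TRIM34, a close relative of TRIM5 and TRIM22, had 2.73 and 3.18 FPKM in Parent, 3.09 and 5.25 in NC-1 and 7.0 and 5.31 with miR-4711-5p. The second NC-1 library almost reached the second treated library. The gene was called against Parent (2.08-fold, log2 0.85, SE 0.20, limma adjusted p = 0.0136) and not against NC-1 (1.48-fold, log2 0.49, limma adjusted p = 0.0941). Without the second NC-1 library the value against NC-1 was 0.80 (adjusted p = 0.0194). The call against Parent was lost without the first miR-4711-5p library (adjusted p = 0.103) and without the first or the second Parent library (adjusted p = 0.0902 and 0.0535). TRIM31, a ligase of the MAVS pathway, ranged from 3.82 to 6.04 FPKM over the 6 libraries, with all groups overlapping and no call. Without the second NC-1 library it was called against NC-1 (log2 0.50, adjusted p = 0.0406).

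**Figure D3:**
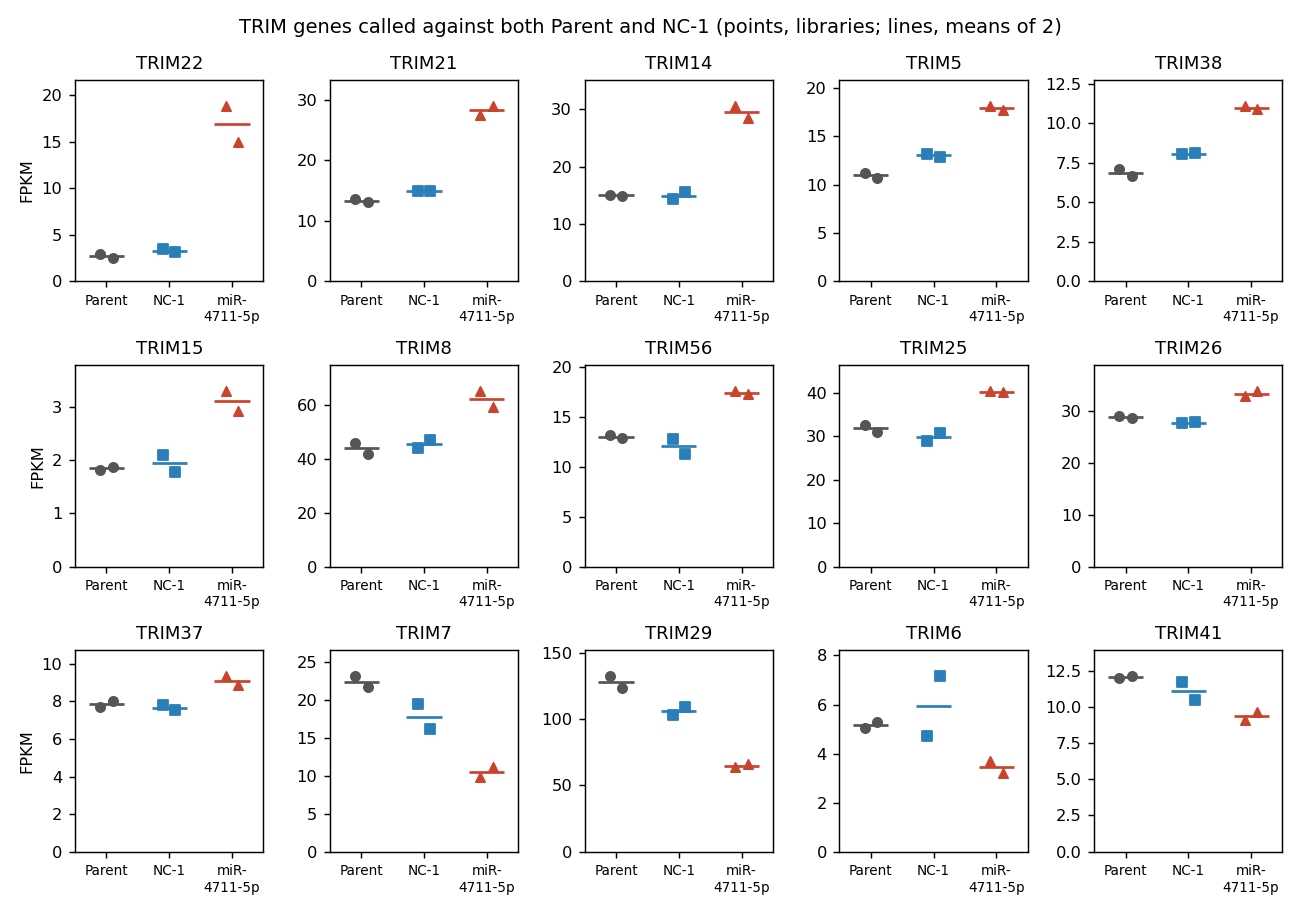
FPKM per library (points) and group means (lines) of the 15 TRIM genes called in the same direction against Parent and NC-1, with each axis starting at 0. In the first 11 panels both miR-4711-5p libraries lie above the 4 others, and in TRIM7, TRIM29, TRIM6 and TRIM41 they lie below.

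Outside the interferon-linked list, TRIM8, TRIM15 and TRIM37 also rose against both references. TRIM8, a regulator of NF-kappaB and cytokine signalling, was the highest of the rising genes, with 46.0 and 41.8 FPKM in Parent, 44.1 and 47.1 in NC-1 and 65.2 and 59.5 with miR-4711-5p. Parent and NC-1 overlapped below the treated pair. The log2 difference was 0.50 against Parent (SE 0.07, limma adjusted p = 0.0013) and 0.44 against NC-1 (limma adjusted p = 0.00241). TRIM15, a neighbour of TRIM26 in the MHC region of chromosome 6, was low, with 1.81 and 1.87 FPKM in Parent, 2.1 and 1.77 in NC-1 and 3.29 and 2.91 with miR-4711-5p. It rose 1.68-fold over Parent (log2 0.53, SE 0.11, limma adjusted p = 0.00641) and 1.60-fold over NC-1 (limma adjusted p = 0.00994). Without the first miR-4711-5p library both calls were lost (adjusted p = 0.0507 and 0.0707). TRIM37, a MATH domain ligase of peroxisomes and centrosomes, went from 7.69 and 8.04 FPKM in Parent and 7.81 and 7.53 in NC-1 to 9.34 and 8.86. Its log2 difference was small, 0.19 from Parent (limma adjusted p = 0.0433) and 0.22 from NC-1 (limma adjusted p = 0.0265). The call against Parent was lost without any single library (adjusted p = 0.0624 to 0.218), and that against NC-1 without either NC-1 or either miR-4711-5p library (adjusted p = 0.0694 to 0.154).

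The calls were also counted by the class of the C-terminal part. Of 22 tested PRY-SPRY genes, 8 rose and 3 fell against both references. Of 4 tested genes without a further C-terminal domain, TRIM8 and TRIM56 rose and none fell. None of the 4 genes with a PHD finger and bromodomain and none of the 3 with NHL repeats was called in 1 direction against both (TRIM28 was called in opposite directions). The remaining 7 genes, of several small classes, gave TRIM37 as a rise and TRIM29 as a fall. Over all 12040 genes, 10% were higher and 15.4% lower against both, and no class or chromosome was tested against these shares. By position, 10 of the 40 genes lie on chromosome 11, of which 3 rose and 2 fell, and 6 lie on chromosome 6, of which TRIM15, TRIM26 and TRIM38 rose.

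TRIM6, TRIM34, TRIM5 and TRIM22 lie next to each other on chromosome 11. In the GENCODE annotation used for the site search, TRIM5 extends to chr11:5684425-5959849 on the minus strand and so spans TRIM22 on the plus strand. The annotation behind the FPKM is not given, so whether these values come from overlapping gene models is not known. The library kit keeps strand, but the sources used here do not say whether the quantification used it. Reads from any overlap could therefore not be assigned with certainty. Over Parent, TRIM5 rose 1.63-fold and TRIM22 6.16-fold, and the part of any overlap in either value was not tested.

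The falls were led by TRIM7 and TRIM29. TRIM7, a ligase that binds glycogenin, had 23.1 and 21.7 FPKM in Parent, 19.4 and 16.2 in NC-1 and 9.80 and 11.1 with miR-4711-5p. The groups did not overlap, and NC-1 lay between the others. The log2 difference was -1.03 (SE 0.10, limma adjusted p = 0.000201) against Parent and -0.71 (limma adjusted p = 0.00121) against NC-1, at levels 2.15 and 1.71 times lower. NC-1 was itself below Parent (-0.32, limma adjusted p = 0.0453), a call that was lost without any library but the first NC-1 one (adjusted p = 0.067 to 0.202) and whose value was -0.20 without the second NC-1 library.

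TRIM29 lies at chr11:119981994-120056237 (minus strand). It read 132.3 and 123.8 FPKM in Parent, 103.3 and 109.4 in NC-1 and 63.8 and 66.0 with miR-4711-5p. Again the 3 groups were apart and NC-1 lay in the middle. TRIM29 fell to a level 1.97 times lower than Parent (log2 -0.97, SE 0.05, limma adjusted p = 1.85e-05) and 1.64 times lower than NC-1 (limma adjusted p = 8.77e-05). NC-1 was below Parent by a log2 difference of -0.26 (limma adjusted p = 0.0117), a call lost without the first Parent or the first NC-1 library (adjusted p = 0.0695 and 0.0644). The fall of TRIM29 with miR-4711-5p was the largest of the family in FPKM.

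TRIM6 and TRIM41, the other genes that fell, both hold seed sites. TRIM41, a ligase known for protein kinase C as a substrate, had 12 and 12.1 FPKM in Parent, 11.7 and 10.5 in NC-1 and 9.06 and 9.67 with miR-4711-5p. The treated pair lay below the 4 others, by 1.28 times against Parent (log2 -0.33, SE 0.07, limma adjusted p = 0.00719) and 1.18 times against NC-1 (log2 -0.22, limma adjusted p = 0.0363). The call against Parent was lost without the first miR-4711-5p library (adjusted p = 0.0629). The call against NC-1 was lost without any library but the second NC-1 one (adjusted p = 0.0607 to 0.193).

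TRIM6, which makes unanchored ubiquitin chains in interferon signalling, had 5.03 and 5.27 FPKM in Parent, 4.73 and 7.15 in NC-1 and 3.71 and 3.22 with miR-4711-5p. The second NC-1 library was the highest. The differences were -0.46 against Parent (SE 0.16, limma adjusted p = 0.0477) and -0.62 against NC-1 (limma adjusted p = 0.0187). The call against Parent was lost without either Parent or either miR-4711-5p library (adjusted p = 0.109 to 0.209), and that against NC-1 without either miR-4711-5p library (adjusted p = 0.0624 and 0.114) or without the second NC-1 library (log2 -0.36, adjusted p = 0.0518).

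TRIM6 and TRIM34 share exons with a read-through gene, TRIM6-TRIM34, so their FPKM depend on how the reads were divided. The read-through symbol was at 2.01 and 1.71 FPKM in Parent, 4.60 and 0.0562 in NC-1 and 1.28 and 1.65 with miR-4711-5p. The second NC-1 library, with the lowest value of the read-through, had the highest values of TRIM6 and of TRIM34 among the controls. The sum of the 3 symbols was 9.77 and 10.2 FPKM in Parent, 12.4 and 12.5 in NC-1 and 12 and 10.2 with miR-4711-5p. With the read-through added, TRIM6 had 6.98 to 9.33 FPKM in the 4 control libraries and 4.99 and 4.87 with miR-4711-5p, still below all of them. With the read-through added, TRIM34 had 4.74 to 7.69 FPKM in the controls and 8.28 and 6.96 with miR-4711-5p, and the groups overlapped.

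Setting the seed sites beside these changes, the 11 genes with a site had 2 that rose (TRIM5, TRIM56) and 2 that fell (TRIM6, TRIM41) against both references, and the 29 without had 9 and 2. Their median log2 differences were 0.13 and 0.10 against Parent and -0.04 and 0.15 against NC-1. Over all tested genes, 27.9% of the 1959 with a site and 13.8% of the 8634 without were lower against both. Higher against both were 6.69% with a site and 11.2% without. Their medians, with and without a site, were -0.08 and -0.01 against Parent and -0.11 and 0.02 against NC-1. TRIM62, with an 8mer site, had 4.81 and 5.13 FPKM in Parent, 4.09 and 5.22 in NC-1 and 4.16 and 4.35 with miR-4711-5p, and its groups overlapped without a call.

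Setting the promoter matches beside them, 6 of the 8 genes with a response element core rose against Parent and 4 against both references (TRIM5, TRIM14, TRIM21, TRIM26), and none fell against Parent. Against NC-1, 4 of the 8 rose and 1, TRIM16, fell. Of the 21 without, 7 rose and 3 fell against Parent. Against NC-1 these 21 gave 5 rises and 4 falls, and against both references 5 and 3. The median log2 difference against Parent was 0.43 with a match and 0.13 without, and against NC-1 it was 0.34 and 0.06. Over all tested genes in the promoter table, 25.6% of 352 with a match and 9.66% of 8623 without were higher against both. Lower against both were 12.2% and 15.9%. Against Parent, 34.7% with a match and 18.2% without were higher, and 15.9% and 25.8% were lower. Against NC-1, 33.0% and 18.5% were higher, and 20.5% and 21.4% were lower. TRIM2 and TRIM16 held a match and were not called higher with miR-4711-5p.

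**Figure D4:**
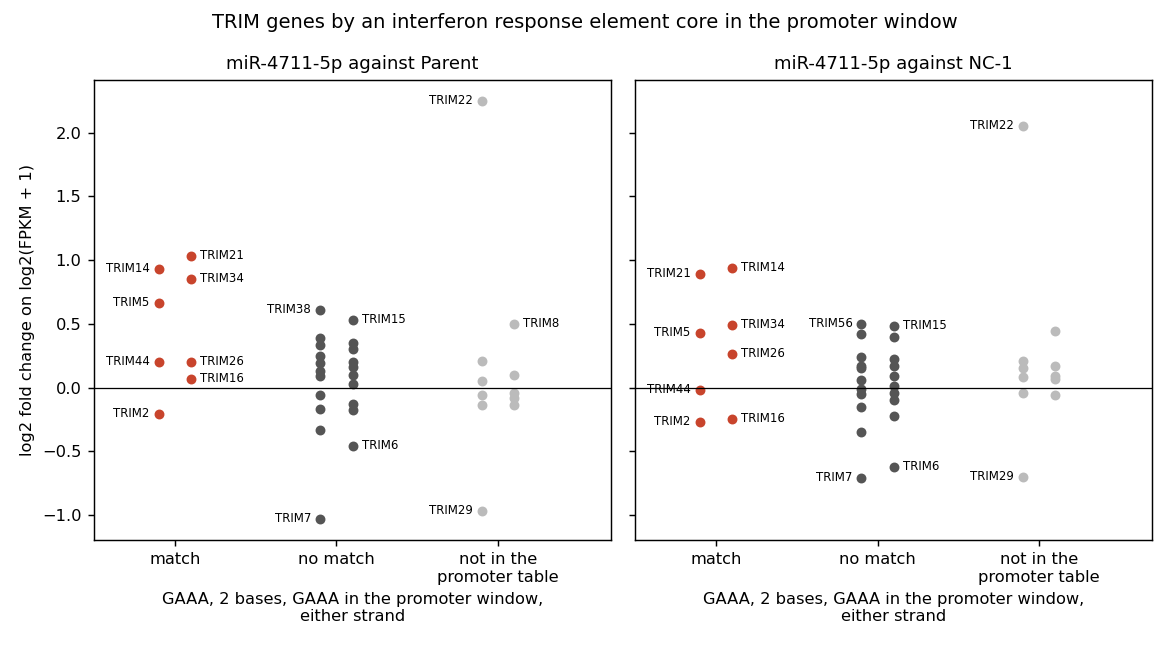
Log2 differences on log2(FPKM + 1) of the 40 TRIM genes, as points, split by whether the promoter window holds the response element core (8 genes), does not (21 genes) or is not in the promoter table (11 genes). Against Parent, 7 of the 8 genes with a match lie above 0, while TRIM22, the highest point, and TRIM29 are not in the table.

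NC-1 against Parent gave 5 higher TRIM genes (12.5%, against 12.1% of all genes) and 4 lower (10%, against 15.1%), with a median log2 difference of 0.02, against -0.01 for all genes. The higher ones were TRIM5, TRIM16, TRIM38, TRIM44 and TRIM59, and the lower ones TRIM7, TRIM28, TRIM29 and TRIM47. Without the first Parent library 1 was higher and 1 lower, and without the second Parent or the first NC-1 library 1 was higher. Without the second NC-1 library 2 were higher, and without either miR-4711-5p library, which enters through the shared spread, 3 were. Lower calls numbered 2 without any of the NC-1 or miR-4711-5p libraries.

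TRIM16, a RING-less member that binds damaged endosomes with galectins, was higher in NC-1 than in either other group. It was at 51.0 and 50.3 FPKM in Parent, 65.2 and 61.9 in NC-1 and 54.2 and 52.6 with miR-4711-5p. Both NC-1 libraries were above all others. The log2 difference was 0.32 for NC-1 over Parent (SE 0.05, limma adjusted p = 0.00431), -0.25 for miR-4711-5p against NC-1 (limma adjusted p = 0.00555) and 0.07 against Parent (limma adjusted p = 0.238). TRIM16L, a shorter near-copy outside the 40 genes that was picked after its values were seen, had 22.5 and 21.0 FPKM in Parent, 41.6 and 41.8 in NC-1 and 22.1 and 22.7 with miR-4711-5p. It was 1.92-fold higher in NC-1 than in Parent (log2 0.91, limma adjusted p = 0.000281). Reads of the pair may be divided wrongly between them, and their sum was 73.5 and 71.3 FPKM in Parent, 106.8 and 103.7 in NC-1 and 76.3 and 75.3 with miR-4711-5p.

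TRIM44, a RING-less protein with a zinc finger of the deubiquitinase type, was at 35.6 and 35.1 FPKM in Parent, 43.2 and 39.9 in NC-1 and 41.6 and 40 with miR-4711-5p. Both transfected groups lay above Parent and overlapped each other. The log2 difference from Parent was 0.23 in NC-1 (limma adjusted p = 0.022) and 0.20 with miR-4711-5p (limma adjusted p = 0.0197). The NC-1 call was lost without either Parent or the first NC-1 library (adjusted p = 0.082 to 0.0971), and the miR-4711-5p call without either Parent or either miR-4711-5p library (adjusted p = 0.0586 to 0.123). TRIM59, a membrane-anchored member, gave the same order at a lower level, with 2.06 and 2.34 FPKM in Parent, 3.33 and 3.05 in NC-1 and 3.48 and 2.7 with miR-4711-5p. Its differences from Parent were 0.39 in NC-1 (limma adjusted p = 0.0468) and 0.35 with miR-4711-5p (limma adjusted p = 0.0477). The NC-1 call was lost without either Parent or either NC-1 library (adjusted p = 0.088 to 0.188). The miR-4711-5p call was lost without any library but the second miR-4711-5p one (adjusted p = 0.0657 to 0.254), and its value was 0.21 without the first miR-4711-5p library.

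The 3 transcriptional cofactors of the PHD and bromodomain class did not move together. TRIM28 was lower than Parent in both other groups, by -0.29 in NC-1 (limma adjusted p = 0.00469) and by -0.14 with miR-4711-5p (limma adjusted p = 0.0366), and so was higher with miR-4711-5p than in NC-1 (0.15, limma adjusted p = 0.0286). The call of miR-4711-5p against Parent was lost without the first Parent or either miR-4711-5p library (adjusted p = 0.0987 to 0.172), and that against NC-1 without either NC-1 or either miR-4711-5p library (adjusted p = 0.0772 to 0.151). TRIM33, a SMAD cofactor, had 13.6 and 13.6 FPKM in Parent, 15.7 and 15.4 in NC-1 and 12.6 and 11.4 with miR-4711-5p. The treated pair lay below all others, with a difference of -0.35 against NC-1 (SE 0.06, limma adjusted p = 0.00438) and -0.17 against Parent (limma adjusted p = 0.0659). TRIM24, a nuclear receptor cofactor, stayed between 7.78 and 8.67 FPKM in all 6 libraries without a call.

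**Figure D5:**
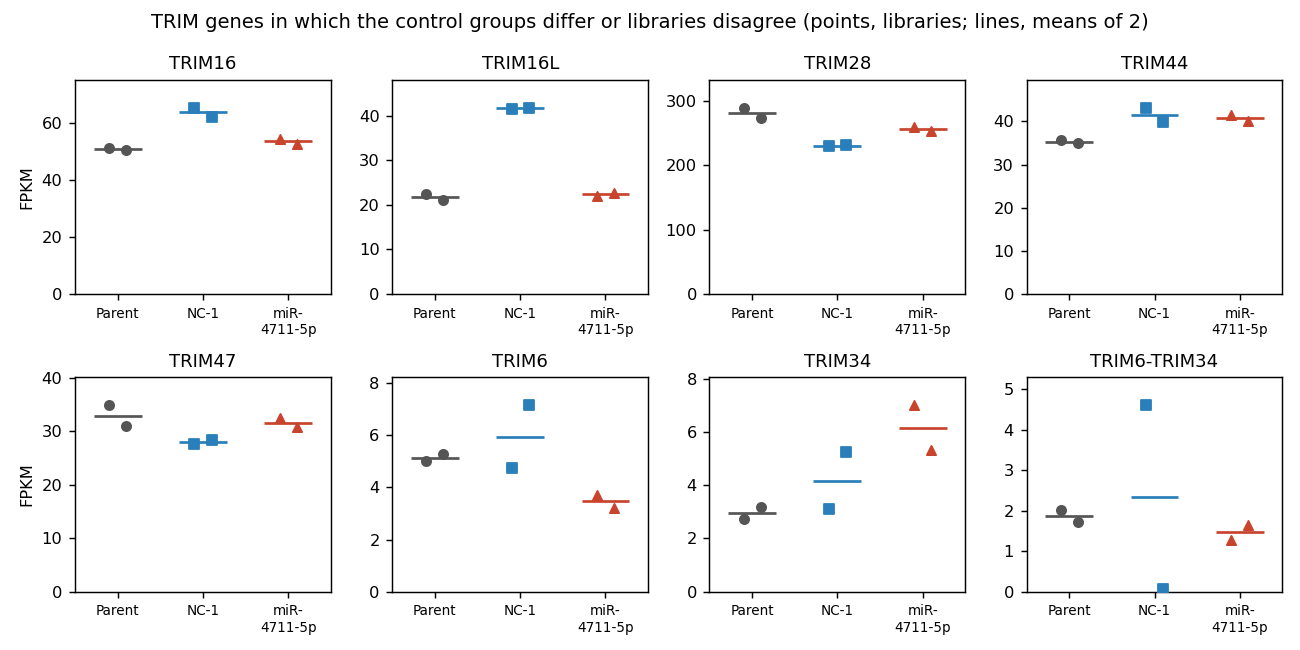
FPKM per library (points) and group means (lines), with axes starting at 0, of TRIM genes in which NC-1 differs from Parent (TRIM16, TRIM16L, TRIM28, TRIM44, TRIM47) and of the shared-exon genes TRIM6, TRIM34 and TRIM6-TRIM34. NC-1 stands apart from both other groups in TRIM16 and TRIM16L, and the second NC-1 library has 0.0562 FPKM of the read-through gene.

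TRIM47 and TRIM32 are named because their calls fell outside the other groups, after their values were seen. TRIM47 had 34.8 and 31.0 FPKM in Parent, 27.5 and 28.4 in NC-1 and 32.4 and 30.7 with miR-4711-5p, and was lower in NC-1 than in Parent by -0.23 (limma adjusted p = 0.0405). That call was lost without any library but the second Parent one (adjusted p = 0.0719 to 0.164), and its value was -0.15 without the first Parent library. TRIM47 was called higher with miR-4711-5p than in NC-1 without the first or the second Parent library (log2 0.17, adjusted p = 0.0456 and 0.0451). TRIM32, an NHL repeat ligase of muscle proteins, rose from 10.4 and 9.67 FPKM in Parent to 11.6 and 11.7 with miR-4711-5p (log2 0.20, limma adjusted p = 0.0294), with NC-1 between them at 11 and 11.2. This call was lost without the second Parent or either miR-4711-5p library (adjusted p = 0.118 to 0.124). The other 17 of the 40 genes were called in no comparison. Their log2 differences ran from -0.21 to 0.30 against Parent, from -0.27 to 0.24 against NC-1 and from -0.17 to 0.26 between NC-1 and Parent.

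Of 5 tested relatives under other symbols, 1 was higher and 0 were lower against both references, beside 10% and 15.4% of all genes. TRIM16L, 1 of the 5, was lower with miR-4711-5p than in NC-1 (log2 -0.87, limma adjusted p = 3.25e-05). MID1, a microtubule-bound TRIM ligase, had 5.87 and 6.24 FPKM in Parent, 5.22 and 6.80 in NC-1 and 7.56 and 9.15 with miR-4711-5p. It was higher against both references (limma adjusted p = 0.0355 and 0.0325). PML, the scaffold of nuclear bodies, was at 42.1 and 37.6 FPKM in Parent, 42.2 and 41.3 in NC-1 and 49.6 and 44 with miR-4711-5p, with a call against Parent (log2 0.23, limma adjusted p = 0.0434) but none relative to NC-1 (limma adjusted p = 0.131). MID2 was called in neither comparison.

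The pathway around the innate immune members was read from a list of 21 sensors, adaptors and kinases, chosen with earlier results known, of which 20 were tested. Against both references 8 were higher (DDX58, DHX58, IFIH1, IKBKE, MB21D1, SQSTM1, TBK1, ZC3HAV1) and 2 were lower (TMEM173, which encodes STING, and TRAF3), where all genes gave 10% and 15.4%. Between NC-1 and Parent, 5 of the 20 were higher and 0 lower, where all genes gave 12.1% and 15.1%. DDX58, which encodes the sensor RIG-I, went from 11.3 and 12.4 FPKM in Parent and 16.4 and 16.1 in NC-1 to 48.8 and 43.8. It rose 3.92-fold over Parent (log2 1.88, limma adjusted p = 4.87e-06) and 2.85-fold over NC-1 (log2 1.46, limma adjusted p = 1.35e-05). NC-1 was itself above Parent in DDX58 (log2 0.43, limma adjusted p = 0.00635). IFIH1 (MDA5) and DHX58 (LGP2), the other receptors of that family, rose by log2 differences of 1.54 and 1.27 against Parent. Against NC-1 these were 1.41 and 1.11. SQSTM1 rose by 0.55 against Parent and 0.14 against NC-1, and NC-1 was above Parent by 0.41 (limma adjusted p = 0.00109). IRF7, the list's remaining gene, read 0.0269 to 0.228 FPKM.

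Of 15 ubiquitin-conjugating enzymes, the partners of RING ligases, 1 was higher and 2 were lower against both references, beside the same 10% and 15.4% of all genes. UBE2L6, the conjugating enzyme of the ubiquitin-like protein ISG15, rose from 37.4 and 38.7 FPKM in Parent to 117.4 and 110.7 (log2 1.56, limma adjusted p = 5.69e-06). UBE2V1 was lower by log2 differences of -0.82 against Parent and -1.0 against NC-1, and UBE2D3 by -0.34 and -0.41. Of 7 partners of TRIM28 in heterochromatin, CBX1 was higher and CBX5 and CHD3 were lower against both references. Their log2 differences were 0.19, -0.73 and -0.21 against Parent and 0.24, -0.97 and -0.15 against NC-1.

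The libraries carried the markers of an epithelial line. Summed epithelial markers (EPCAM, KRT7, KRT8, KRT18, KRT19) reached 5138 to 6133 FPKM. Those of leukocytes summed to 0.563 to 0.979 FPKM over 6 genes, with TYROBP at 0 throughout and PTPRC at 0 in both miR-4711-5p libraries. Fibroblast markers summed to 1.28 to 2.42 FPKM, endothelial markers to 0.649 to 3.53 and acinar markers to 0.73 to 5.1, with CPB1, PNLIP and CELA3A at 0. Single markers moved with the groups. KRT19 went from 1699.6 and 1558.9 FPKM in Parent and 1294.0 and 1254.0 in NC-1 to 890.1 and 911.6 with miR-4711-5p (log2 -0.85 against Parent, limma adjusted p = 2.58e-05). KRT18 was higher against both references. The endothelial CDH5 was at 0.995 and 0.929 FPKM in Parent, 3.16 and 2.88 in NC-1 and 0.612 and 0.469 with miR-4711-5p (log2 1.03 for NC-1 over Parent, limma adjusted p = 0.00204, and -1.38 for miR-4711-5p against NC-1, limma adjusted p = 0.000165). The acinar PRSS1 was at 0.684 and 1.57 FPKM in Parent, 2.73 and 2.62 in NC-1 and 3.18 and 5.1 with miR-4711-5p. It was called above Parent both with miR-4711-5p (log2 1.28, limma adjusted p = 0.00427) and in NC-1 (log2 0.82, limma adjusted p = 0.039). Against NC-1 it was not called with miR-4711-5p (log2 0.46, limma adjusted p = 0.16). The part of these markers in the TRIM results was not tested. Total FPKM was 493145 and 499659 with miR-4711-5p and 515348 to 550772 in the other libraries, while the symbols above 0 numbered 17146 and 17305 against 16597 to 16808, and the part of these differences in the results was not tested. From the steps between low values, the libraries' depth relative to the first Parent library was about 0.751 to 1.207, with only 29.1% to 36.9% of the low genes used on the most common step, so these depths are rough.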

How the data were processed

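Total RNA of 6 BxPC-3 libraries was extracted with the RNeasy Micro kit and sequenced after TruSeq stranded mRNA preparation. The authors deposited 1 table of FPKM per library. Their submitted processing notes list TopHat2 2.1.1, Bowtie2 2.3.5.1, SAMtools 1.2, Cufflinks 2.2.1 and Cuffdiff on hg19, while the methods name other versions of the aligners and Cuffnorm. The gene annotation, the strand setting and the option by which libraries were scaled are not given in the sources used here. Count models were not applied, since FPKM hold no read numbers, and the depth is known only roughly.

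The 12040 genes with mean FPKM of at least 1 were fitted with limma 3.58.1 in R 4.3.3 on log2(FPKM + 1), 3 groups of 2 in one fit with a mean-variance trend (3 residual and 4.15 prior degrees of freedom), two-sided, with Benjamini-Hochberg adjustment over all genes. An exact permutation of 2 against 2 libraries cannot go below 0.333, so each p-value depends on the variance that limma borrows from other genes. Data of miR-4711-5p against Parent were simulated with independent normal errors and changes in only 200 of 12040 genes. On these the fit recovered 84.7% of log2 changes of 0.8 and 41.4% of those of 0.4, and 3.06% of calls were false. The real comparison called 2255 genes higher and 2975 lower, far more than were changed there. The simulated shares are therefore not error rates of the reported calls.

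The TRIM genes and all gene lists were chosen with earlier results of these data known, and lists are described by counts and medians without a test. Genes were named with values in every library if called against both references in 1 direction with both miR-4711-5p libraries beyond the 4 others (up to 10 in each direction), if interferon-linked, if among the 5 largest NC-1 changes or the 5 highest levels, if next to the level limit, or if 1 of TRIM24, TRIM28 and TRIM33. In other lists the 3 largest changes past both references were named, with PML, MID1 and MID2. TRIM16L, TRIM32, TRIM37, TRIM47, TRIM62 and the read-through gene were added after their values were seen. SQSTM1 and PRSS1 also fell outside these rules. Sequence searches used GRCh37 with GENCODE and RefSeq tables on GRCh38.p14. Protein sequences were not analysed here. Figures were drawn with matplotlib 3.10.9.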

Additional observations from a re-analysis of the deposited data

How the results depend on the processing

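Of 1077 values of single genes under an alternative, 907 kept their direction and their side of the threshold, 148 lost a call, 5 gained one and 17 changed sign, and 0 of the 651 that belonged to a call changed sign. The replicate numbers did not pair the libraries, since deviations of same-numbered libraries correlated at 0.061, 0.00301 and -0.00892 across genes. A replicate block lowered the higher calls of NC-1 against Parent from 5 to 3 and the lower calls against both references from 4 to 2. A 1.5-fold change was also required, on the log2(FPKM + 1) scale and not on ratios of mean FPKM. This left 6 higher and 2 lower genes against Parent and 3 and 3 against NC-1. It left 3 and 2 against both, and 0 and 0 between NC-1 and Parent. TRIM15 fell short on that scale, at 0.53 against Parent and 0.48 against NC-1, although its ratios were 1.68 and 1.60. Lower genes against Parent, 5 in the report, numbered 3 under median-of-ratios rescaling, 3 with no filter on low values and 3 with no trend. Lower genes against both numbered 2 with no filter. NC-1 against Parent gave 3 higher genes with no filter or with 2 groups in the fit, and 2 lower genes with no filter, 2 groups or no trend. Leaving out 1 library at a time gave 9 to 13 higher and 2 to 5 lower genes against Parent, 9 to 13 and 4 to 5 against NC-1, 9 to 11 and 2 to 3 against both, and 1 to 3 and 1 to 3 for NC-1 against Parent. Counts against both references were added to these alternatives after the data were seen. TRIM37 was absent from the rises against both without any single library. Searching any annotated 3′ UTR again found 11 genes with a site.

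The sign changes were in uncalled values. Rescaling put TRIM14 at 0.00 for NC-1 against Parent. Leaving out 1 library at a time gave ranges for NC-1 against Parent of -0.07 to 0.05 in TRIM14, -0.04 to 0.12 in TRIM15, -0.01 to 0.12 in TRIM8, -0.10 to 0.41 in TRIM6, -0.40 to 0.10 in TRIM31 and -0.07 to 0.02 in TRIM24. Against Parent they were -0.05 to 0.24 in TRIM31 and -0.14 to 0.02 in TRIM47 with miR-4711-5p, and against NC-1 -0.01 to 0.50 in TRIM31, -0.18 to 0.10 in TRIM59, -0.08 to 0.03 in TRIM44 and -0.12 to 0.14 in TRIM3. The cause was not tested. Rescaling moved the median of all genes by at most 0.018. FPKM without counts give no interval for a single library.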
